A study of Ovis aries with 2 samples.

Results

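The dermal papilla cells described here were 858 of the 14037 skin cells in the deposited table, 639 of 6452 in the library from straight wool lambs and 219 of 7585 in the library from curly wool lambs. They were chosen by a rule on measured values, taken as UMIs (unique molecular identifiers, each standing for an RNA molecule counted) per 10000 UMIs of a cell. A cell was a papilla cell where CRABP1, APOD and RSPO3 summed to at least 20, LUM was under 5 and fewer than 3 of the 6 endothelial genes PECAM1, CDH5, CLDN5, EMCN, EGFL7 and KDR were detected. It was a high cell where FGF7, EDN3 and DPEP1 also summed to at least 5, and a low cell otherwise, which left 444 low cells in the straight and 409 in the curly library. Both libraries were made by droplet single-cell RNA sequencing of body side skin from Hu sheep lambs aged 3 days, a breed kept for its lambskin, taken under local anaesthesia with lidocaine. The groups differed by the phenotype label alone, straight wool against waved wool, the latter called curly in the sample titles. For each group the skins of 3 lambs were pooled before dissociation, and a suspension of dissected hair follicles was mixed with a suspension of whole skin, in proportions that the sources used here do not give. Each wool type was therefore 1 library, so no spread between animals could be measured and no test between wool types was possible.

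The dermal papilla is the cluster of specialised fibroblasts at the base of a hair follicle. It is enclosed by the hair matrix, the epithelial cells that divide and build the fibre, and it signals to them with secreted proteins of the FGF, IGF, WNT, BMP and activin families and with their secreted inhibitors. Papilla cells also signal to follicle melanocytes, through endothelin 3 and the agouti protein, and they rest in a matrix rich in versican, collagens and basement membrane proteins.

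The high papilla cells held 5121811 UMIs in the straight library, with a median of 7767 UMIs and 2164 genes per cell, and 1275088 UMIs in the curly library, with a median of 5586 UMIs and 1630 genes. Low papilla cells were shallower, with medians of 4719.5 and 4169 UMIs, and all remaining cells had medians of 7826.5 and 8480.5. Levels below are UMIs of a gene per 1000000 UMIs of a class in a library (CPM). Their 95% intervals are exact Poisson, those of shares are Clopper-Pearson, and those of log2 ratios are the exact binomial intervals of the split of the UMIs, and all of these cover counting error only. The libraries had 70 cell barcodes in common. Of the high cells 10 carried such a barcode, and no barcode was a high cell in both libraries. Without the cells that carried them, the shares and gene counts given below kept to within 1.5 times their values.

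High papilla cells made up 9.90% of the straight library (95% interval 9.19% to 10.7%) and 2.89% of the curly library (2.52% to 3.29%). Among the papilla cells alone they were 59.0% of 1083 cells in the straight library (56.0% to 62.0%) and 34.9% of 628 in the curly library (31.1% to 38.7%). These shares rest on the rule's own values in 1 library each and are given as a description. The proportion of follicle to skin suspension in each library is not given in the sources used here, and the depth of papilla cells differed as given above. The part of either in these shares was not tested. With the sum of FGF7, EDN3 and DPEP1 set at 10 or more in place of 5, the curly share of the library was 1.69% and its share of papilla cells 20.4%, against 7.41% and 44.1% in the straight library.

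FGF7, EDN3 and DPEP1 were the genes that chose these cells, and their values are given as a description. FGF7 encodes keratinocyte growth factor, a papilla signal that acts on epithelial cells through a splice form of FGFR2. EDN3 encodes endothelin 3, a peptide that acts on melanocytes, and DPEP1 a membrane dipeptidase. The 3 genes summed to a median of 15.8 UMIs per 10000 in straight high cells (lowest 5.08, highest 74.1) and 12.2 in curly high cells (5.04 to 43.5). Just inside the threshold, between 5 and 6, lay 37 straight and 27 curly cells. Just outside it, between 4 and 5, lay 50 straight and 21 curly low cells, the highest at 4.9983 and 4.9677. Of the low cells, 57.2% in the straight and 68.7% in the curly library held no UMI of the 3 genes. The threshold was passed on a single UMI by 7 straight and 6 curly high cells.

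FGF7 stood at 1085 CPM in the straight and 779.6 CPM in the curly library, EDN3 at 518 CPM in the straight and 457 CPM in the curly library, and DPEP1 at 298 CPM in the straight and 260.4 CPM in the curly library. FGF7 was detected in 90.8% of straight and 88.1% of curly high cells, against 5.04% and 2.09% of all cells outside the papilla and LUM-positive fibroblast classes. EDN3 was found in 91.1% of straight but 63.0% of curly high cells (7.78% and 3.35% of the other cells). The deposited depth of curly high cells was lower, as given above, so the shares are set out at equal depth as well. FGF7 with EDN3 was seen in 83.9% of straight high cells (80.8% to 86.6%) and 56.6% of curly ones (49.8% to 63.3%), FGF7 without EDN3 in 6.89% (5.05% to 9.13%) and 31.5% (25.4% to 38.1%), and EDN3 without FGF7 in 7.20% and 6.39%. To put both libraries at 1 depth, each cell was thinned to 2000 UMIs, which left out 12 straight and 9 curly high cells that were shallower. FGF7 was then detected in 70.8% of straight and 70.5% of curly high cells, EDN3 in 57.7% (53.8% to 61.6%) and 41.9% (35.2% to 48.9%), and DPEP1 in 38.6% of each. The shares with EDN3 lay closer together at equal depth. FGF7 without EDN3 came to 30.6% (27.0% to 34.4%) and 38.1% (31.5% to 45%) of thinned cells.

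**Figure D1:**
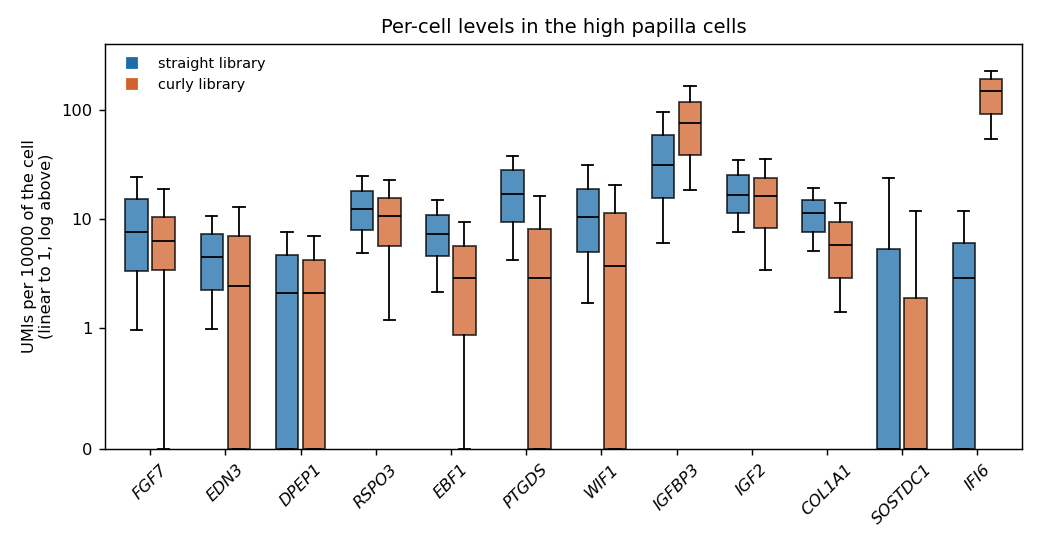
Levels of 12 genes in single high papilla cells of the straight (blue) and curly (orange) library, in UMIs per 10000 UMIs of the cell on an axis that is linear to 1 and logarithmic above. Boxes span the quartiles, black lines mark medians and whiskers reach from the 10th to the 90th percentile: the FGF7 medians lie at 7.63 and 6.19, those of PTGDS at 17.0 and 2.84, and those of IFI6 at 2.84 and 147.

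The label of the class was checked on markers that the rule did not use. Of these, EBF1 and PTGDS had been chosen as markers of the class with earlier results of these data known. Their values are therefore a description. EBF1, a transcription factor of mesenchymal cells, was found in 96.2% of straight and 75.3% of curly high cells (5.48% and 3.19% of the other cells) and in 73.7% and 46.2% of those thinned to 2000 UMIs, at 804 CPM in the straight and 402 CPM in the curly library. PTGDS, which makes prostaglandin D2, stood at 1997 and 557 CPM, and was detected in 96.2% and 61.6% of cells (12.9% and 9.92% of the others), or 87.2% and 49.0% at 2000 UMIs. The study named its papilla cluster from WIF1, a secreted WNT inhibitor, IGFBP3, a binding protein for IGFs, and SOX18, a transcription factor. WIF1 was at 1364 CPM in the straight and 705 CPM in the curly library (intervals 1332 to 1396 and 659.7 to 753), against 60.9 and 7.15 CPM in the other cells. IGFBP3 was at 3904 and 7942 CPM, against 356 and 94.8 CPM. HHIP, an inhibitor of hedgehog ligands, INHBA, the activin A subunit, and SPON1, a secreted matrix protein, were likewise far above the other cells in each library. HHIP stood at 273 and 194 CPM, INHBA at 438 and 482 CPM and SPON1 at 218 and 183 CPM, with 20.1 CPM of INHBA in straight cells as the highest of their levels there. SOX18 was at 214 and 99.6 CPM, and versican, VCAN, at 127 and 71.4 CPM. Markers of the label were thus present in both libraries. Low papilla cells held them too, with WIF1 at 1463 and 568 CPM and IGFBP3 at 5893 and 5377 CPM. Of 26 papilla signature genes with 100 UMIs, SOX18, PRDM1 and LAMC3 were more than 2-fold lower in high than in low cells of both libraries. In the opposite direction 6 were higher, among them FGF7, EDN3 and DPEP1 of the rule. Of all genes tested 1.68% were lower and 1.21% higher.

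Several genes known from the papilla of mice were thin in these cells. SOX2, a transcription factor that marks the papilla of some mouse hair types, was detected in 11.9% of straight and 4.11% of curly high cells (93 and 13 UMIs), against 0.189% and 0.145% of the other cells. At 2000 UMIs these shares of high cells were 3.03% and 2.86%. CORIN, a membrane protease, had 31 and 3 UMIs, alkaline phosphatase ALPL 68 and 31, and TBX18, a mesenchymal transcription factor, 30 and 11. LEF1, which carries WNT signals to DNA, was at 32.8 CPM in the straight and 17.2 CPM in the curly library, beside 25.1 and 31.3 CPM in the other cells, so that it was above them in the straight and below them in the curly library. NOG, the BMP antagonist noggin, had 4 UMIs in straight and 1 in curly high cells.

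Markers of endothelial cells, melanocytes and leukocytes were low in the class. The 10 endothelial genes, 6 of which the rule limits, summed to 7.42 CPM in straight and 3.92 CPM in curly high cells, the 5 melanocyte genes (3 of them in the table) to 1.37 and 0.784 CPM, and the 8 leukocyte genes (7 in the table) to 28.7 and 5.49 CPM, with PTPRC at 0 in both libraries. In the other cells the endothelial list summed to 101 and 48.7 CPM and the leukocyte list to 328 and 78.7 CPM. The melanocyte list was about as low there, at 1.42 and 1.09 CPM, and so does not set the class apart. LUM, which the rule holds under 5 per 10000, had 31 and 6 UMIs in all. The fibroblast list of 10 genes summed to 2096 and 1458 CPM, with PI16 at 0 in both libraries and DPT at 0 in the straight library, against 26564 and 62063 CPM in the LUM-positive fibroblasts of the same libraries. The 10 contractile genes came to 455 and 445 CPM, with ACTA1 at 0 in the straight library. The 4 Schwann cell genes summed to 45.1 and 46.3 CPM, of which S100B was 44.3 and 45.5 CPM and SOX10 was at 0, against 13.8 and 15.8 CPM in the other cells. Keratins were the largest foreign signal: 12 of 14 listed keratinocyte genes were in the table, and together they gave 2251 CPM in straight and 4428 CPM in curly high cells, beside 32639 and 30767 CPM in the other cells. No keratin of the list was at 0 in these cells. PECAM1 had 3 and 1 UMIs. The defining melanocyte gene PMEL had 7 and 1.

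**Figure D2:**
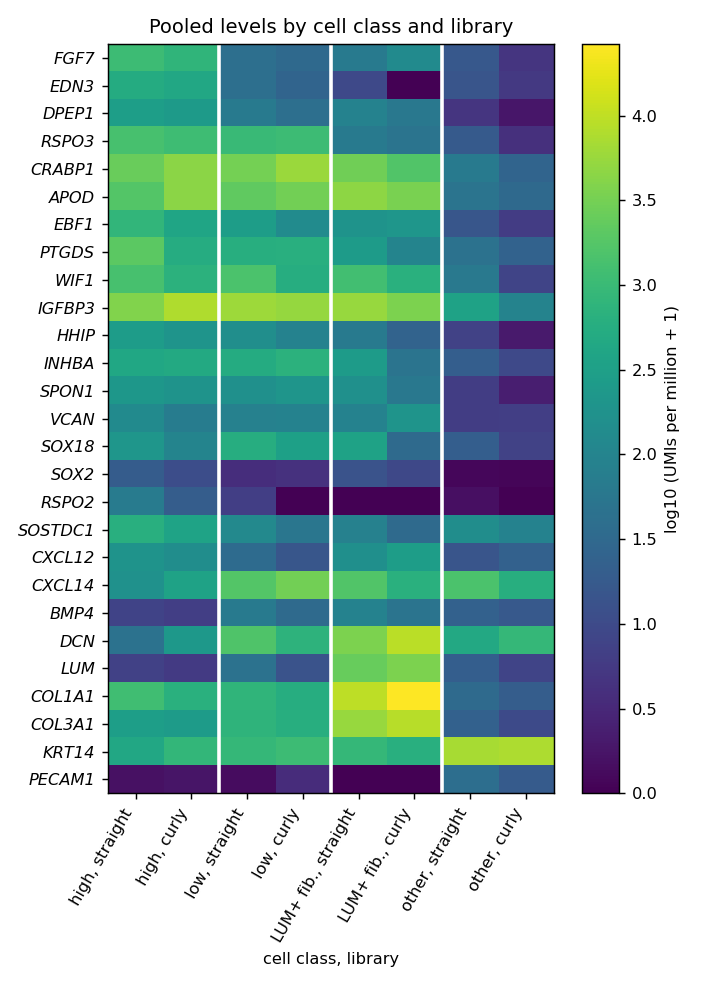
Pooled levels of 27 genes, as log10 of CPM plus 1, in high and low papilla cells, LUM-positive fibroblasts (75 straight and 55 curly cells) and all other cells of the straight and curly libraries. FGF7 stood at 1085 and 780 CPM in high cells and at most 131 CPM elsewhere, whereas WIF1 lay between 568 and 1463 CPM in high and low papilla cells and the fibroblast class alike.

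High and low papilla cells of a library came from the same pooled suspension, and their levels were set side by side in each library. The rule used this contrast, so the values describe the class and nothing is read from their counts. Of 6862 genes with at least 100 UMIs over the papilla cells, 83 (1.21%) were at least 2-fold higher in high cells in both libraries and 115 (1.68%) at least 2-fold lower. With the log2 ratios of each library centred on their medians of -0.03 and -0.11, these were 94 and 87.

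Beyond the rule's own genes, the genes most in excess in high cells in both libraries included other signals and signal modifiers. RSPO2, an R-spondin that strengthens WNT signals at the receptor, stood at 67.4 CPM in the straight and 18.8 CPM in the curly library, against 5.70 CPM in straight low cells and 0 UMIs in curly low cells, at least 11.7-fold lower there counted against 3 UMIs. SOSTDC1, a secreted antagonist of BMP and WNT signals, was at 624 CPM in the straight and 362 CPM in the curly library, against 118 and 53.3 CPM in low cells. CXCL12, a chemokine of stromal cells, stood at 184 and 146 CPM in high and 33.8 and 14.5 CPM in low cells, and IGFBP5, another IGF binding protein, at 308 and 336 CPM, against 62.7 and 66.7 CPM. DIO2, the deiodinase that activates thyroid hormone, stood at 54.5 and 32.1 CPM beside 4.07 and 2.15 CPM in low cells, and CRYM, which binds thyroid hormone, at 79.5 and 88.6 CPM against 17.1 and 3.23 CPM. The remaining ranked genes were PLCXD3, TUNAR, VSTM2L, TSPAN33 and BGLAP, each with 2.16 or more on the log2 scale in both libraries. VSTM2L had 0 UMIs in curly low cells. FAM227B, which overlaps FGF7, and GALK2, which does not, are the genes on either side of FGF7 in RefSeq's sheep annotation. GALK2, a galactokinase family gene, was at 72.4 and 50.2 CPM in high and 6.11 and 2.69 CPM in low cells. Whether its UMIs were distinct from those of FGF7 was not tested.

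Among listed genes, transcription factors EBF1 and SOX2 were above 2-fold in both libraries. EBF1 was higher by log2 1.5 in straight (interval 1.38 to 1.62) and 1.55 in curly cells (1.33 to 1.77). SOX2 was higher by 2.67 (1.57 to 4.03) and 1.66 (0.16 to 3.34). ECE1, the protease that activates endothelins, was higher by 2.23 and 2.05, and the WNT receptor FZD1 by 1.5 and 1.41. The matrix glycoprotein tenascin C, TNC, was higher by 2.06 and 2.97, the glypican GPC3 by 1.22 and 1.72, the PDGF receptor PDGFRA by 1.08 and 1.11, and the complement proteases C1R and C1S by at least 1.05. PTGDS did not divide the classes alike: it was higher in straight high cells by 1.78 (1.70 to 1.86) but differed by -0.17 (-0.31 to -0.03) in the curly library. WIF1, at -0.10 and 0.31, RSPO3, at 0.46 and 0.10, and IGFBP3, at -0.59 and 0.56, stayed within 2-fold of the low cells in both libraries.

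Genes lower in the high cells included FABP7, CXCL14, CD74, KCNE3, BMP4, CD34, WNT10A, LBH and TFAP2A. CXCL14, a chemokine of follicle epithelium and of some fibroblasts, was at 169.9 and 354 CPM in high and 1765 and 3083 CPM in low cells. BMP4, a BMP ligand, was at 6.64 and 5.49 CPM, beside 65.1 and 32.8 CPM in low cells. SOX18 was lower at log2 -1.43 (-1.55 to -1.32) and -1.72 (-2.01 to -1.44), and DCN, the proteoglycan decorin, at -5.11 and -1.69. COL3A1, COL4A1 and COL6A3 were the collagens more than 2-fold lower in both libraries, and no listed collagen was more than 2-fold higher in both. Low cells held more of some other cell types' genes than high cells. Their keratinocyte list summed to 3854 and 5783 CPM, their leukocyte list to 105 and 14.5 CPM and their fibroblast list to 3583 and 2286 CPM. Their contractile list was lower than that of high cells in the straight and higher in the curly library, at 243 and 608 CPM, and so were their endothelial list, at 4.48 and 7.53 CPM, and their Schwann cell list, at 35.8 and 96.3 CPM. The part of those genes in the contrast of high with low cells was not tested.

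**Figure D3:**
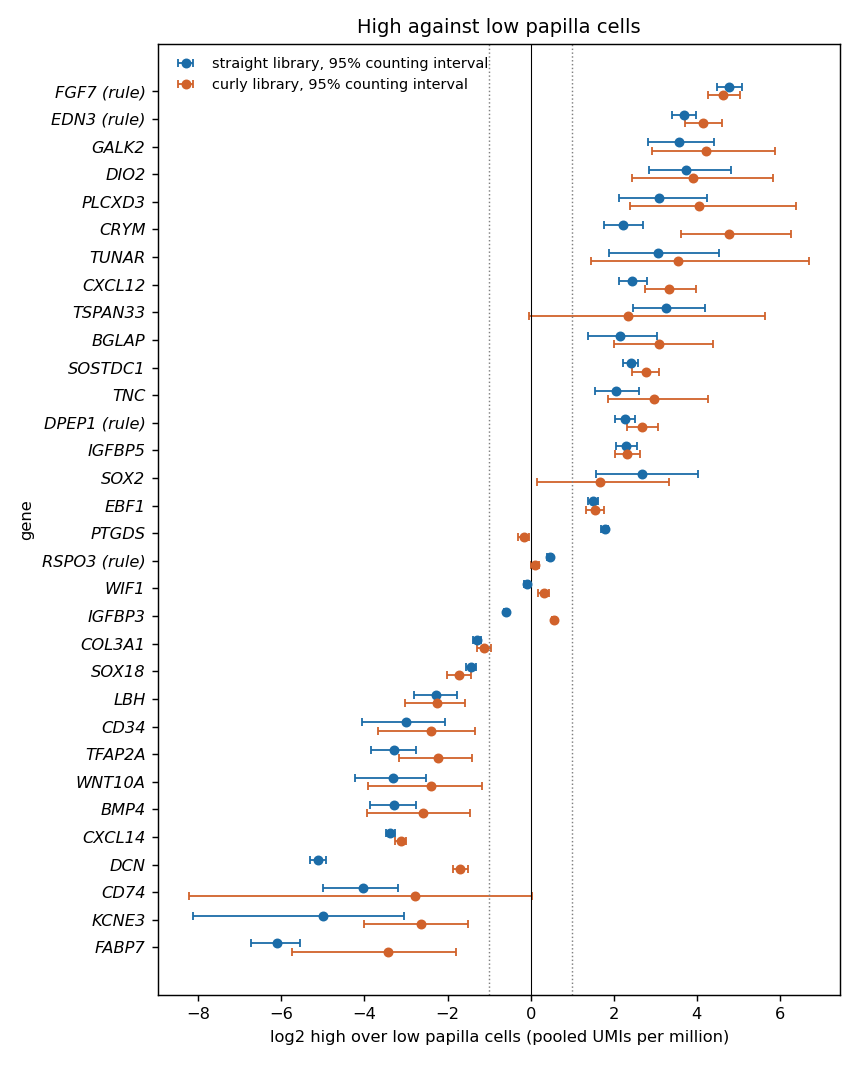
Log2 ratio of high over low papilla cells for ranked and listed genes with at least 1 UMI in low cells of each library, with exact binomial 95% counting intervals (straight in blue, curly in orange; genes of the rule are marked). FGF7 lies at 4.78 and 4.64, IGFBP3 lies at -0.59 and 0.56, on opposite sides of 0, and DCN at -5.11 and -1.69.

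Within the papilla cells, the levels of several genes differed between bins of the sum of FGF7, EDN3 and DPEP1 on each side of the threshold as well as across it. Cells were binned at a sum of 0, above 0 to 5, 5 to 20 and 20 to 40, with 254, 190, 412 and 190 cells in the straight and 281, 128, 168 and 46 in the curly library. Depth moved with the bins: median UMIs were 3802.5 in the lowest and 8172 in the 20 to 40 bin of the straight library, and 3970 and 5807 in the curly library. SOSTDC1 stood at 65.7, 171, 344 and 973 CPM across the straight bins and at 49.9, 58.6, 179 and 809 CPM across the curly bins. EBF1 went from 140 and 433 CPM below the threshold to 777 and 870 CPM above it in the straight library, and from 126 and 155 to 363 and 517 CPM in the curly library. RSPO2 was at 2.41, 9.09, 54.7 and 87.8 CPM in straight cells; curly cells had 0 UMIs in the bins below the threshold, 20 UMIs in the next and 3 in the last. In the opposite direction, CXCL14 stood at 2078, 1442, 214 and 98.5 CPM in the straight bins and at 3630, 2210, 444 and 59.1 CPM in the curly bins. SOX18 was at 594, 558, 234 and 181 CPM, and at 343, 306, 103 and 96.1 CPM. WIF1 stood at 1299, 1631, 1305 and 1516 CPM over the straight bins and at 502, 674, 705 and 702 CPM over the curly bins. In the 37 straight and 5 curly cells at 40 or more, SOSTDC1 was at 1894 and 2541 CPM and WIF1 at 1181 and 748 CPM.

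**Figure D4:**
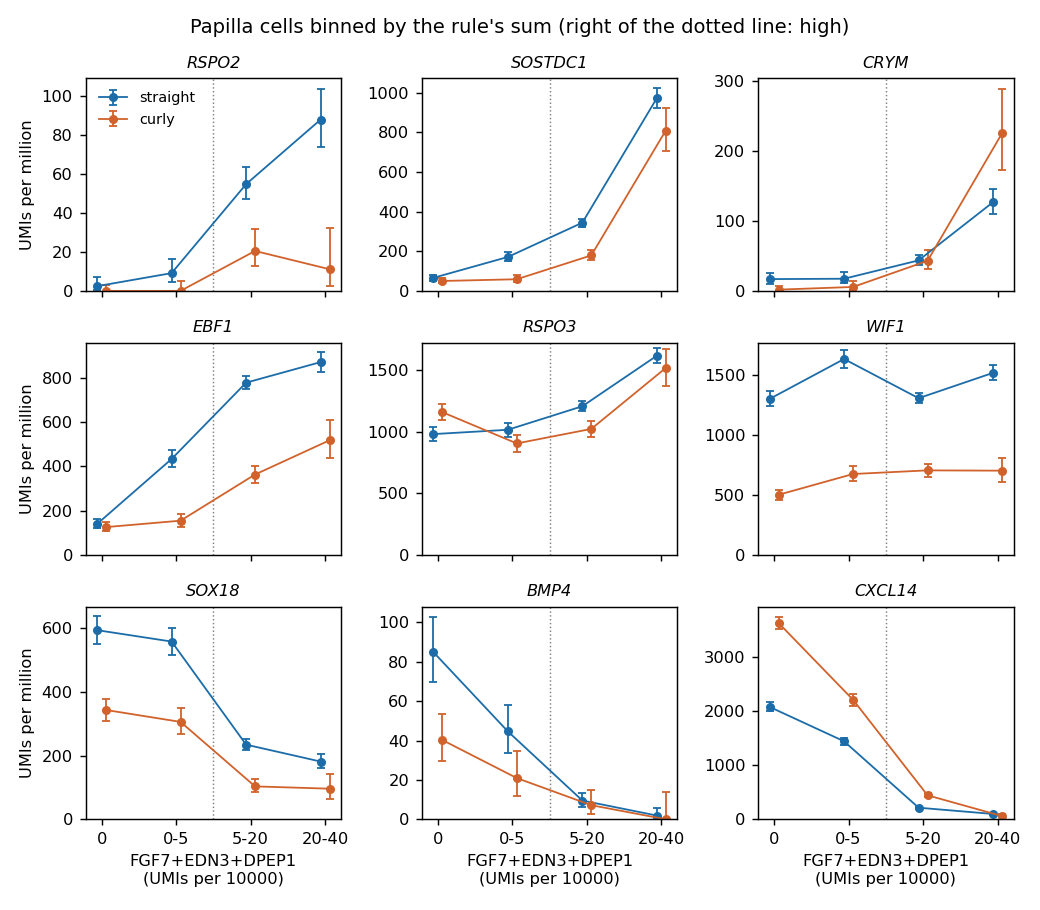
Levels of 9 genes (CPM, exact Poisson 95% intervals) in papilla cells binned by the summed FGF7, EDN3 and DPEP1 level in UMIs per 10000, for the straight (blue) and curly (orange) library; cells right of the dotted line are high cells. SOSTDC1 stands at 65.7 CPM in the lowest and 973 CPM in the highest straight bin shown, CXCL14 at 2078 and 98.5 CPM, and WIF1 between 1299 and 1631 CPM in the 4 straight bins shown.

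The comparison that the study was designed for sets curly against straight wool. In high papilla cells, 5023 genes had at least 100 UMIs over both libraries. Of these, 109 (2.17%) were at least 2-fold higher in the curly library and 363 (7.23%) at least 2-fold lower, with a median log2 ratio of -0.13 and an SD over genes of 0.72. With ratios centred on that median, 163 were higher and 292 lower. The median was -0.06 in low papilla cells and -0.17 in the other cells. Part of the 2-fold differences was also seen in other cells of the same libraries. Of the 109 genes higher in curly high cells, 48 (44.0%) were also 2-fold higher in low papilla cells and 30 (27.5%) in the other cells, beside 2.57% and 1.08% of all 5023 genes. Of the 363 lower genes, 131 (36.1%) and 67 (18.5%) were also lower there, beside 4.42% and 4.12%. These ratios compare 2 pooled libraries. The straight high cells hold most of the UMIs, so the limit of 100 UMIs was reached more easily by genes that are higher there.

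No FGF ligand or receptor passed 2-fold between the libraries. Of 22 listed genes of the FGF axis, 21 were in the table, 7 reached 100 UMIs, and none of the 7 differed by 2-fold (median log2 -0.37, beside -0.13 over all genes tested, against which each list's median below is to be read, as its counts are against 2.17% higher and 7.23% lower). FGF7, which the rule used, was lower in curly high cells by log2 -0.48 (interval -0.58 to -0.38) and FGFR1, the receptor of mesenchymal cells, at -0.38 (-0.58 to -0.18), with 252 CPM in the straight and 194 CPM in the curly library. FGF2 had 34 and 6 UMIs. The feedback inhibitor SPRY1 stood at 56.4 and 44.7 CPM.

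Of the IGF axis, 14 listed genes were in the table and 8 reached 100 UMIs, of which IGFBP3 and PAPPA2 were more than 2-fold higher in curly cells and none was lower (median 0.04). IGF1, a growth factor that the papilla gives to the matrix, was at 374 CPM in the straight and 286 CPM in the curly library (log2 -0.39, interval -0.56 to -0.23) and was detected in 79.2% and 56.2% of high cells (3.48% and 1.20% of the others), or 44.2% and 37.6% at 2000 UMIs. IGF2 was at 1849 CPM in the straight and 1794 CPM in the curly library (log2 -0.04, interval -0.11 to 0.02), a ratio whose interval includes 0. IGFBP3 lay at the 2-fold limit: it was higher by 1.02 (0.99 to 1.06) in high cells, but by 0.88 among cells that reach the study's limit on genes, 0.97 among cells at 10 or more of the rule's sum and 0.98 as a mean over cells, whereas it differed by -0.13 in low papilla cells and by -1.91 in the other cells. PAPPA2, a protease that frees IGFs from binding proteins, was at 21.9 CPM in the straight and 52.5 CPM in the curly library (log2 1.26, interval 0.81 to 1.71).

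The WNT axis held 44 listed modulators, ligand receptors and effectors, 43 of them in the table and 23 with 100 UMIs. DKK3 was more than 2-fold higher in curly cells, RSPO2 and FZD10 more than 2-fold lower, and the median was -0.49. RSPO3, an R-spondin and a gene of the rule, was at 1371 CPM in the straight and 1142 CPM in the curly library (log2 -0.26, interval -0.35 to -0.18). RSPO2 had 67.4 CPM in straight high cells and 18.8 CPM in curly ones (345 and 24 UMIs; log2 -1.84, interval -2.50 to -1.24). RSPO1, of the same family, was at 24.8 and 35.3 CPM, with an interval of -0.01 to 1.01 that includes 0. Secreted proteins of the WNT list differed in direction. WIF1 was lower at log2 -0.95 (-1.05 to -0.85), SFRP1 at -0.70 (-0.84 to -0.56) from 625 to 384 CPM, and SOSTDC1 at -0.78 (-0.93 to -0.64), while DKK3 was higher by 1.90 (1.39 to 2.40), from 13.9 to 51.8 CPM. CTNNB1, which encodes beta-catenin, was at 198 and 189 CPM (log2 -0.06, interval -0.27 to 0.14). LEF1 was lower at -0.93 (-1.64 to -0.28) on 22 curly UMIs.

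BMP and activin genes came to 28 in the list, 27 in the table and 11 with 100 UMIs; BMP3 and FST were more than 2-fold lower in curly cells, none was higher, and the median was -0.17. BMP3, a BMP family member that opposes other BMPs, was at 91.0 CPM in the straight and 40.8 CPM in the curly library (log2 -1.16, interval -1.60 to -0.74). FST, follistatin, which binds activin, was at 854 CPM in the straight and 315 CPM in the curly library (log2 -1.44, interval -1.59 to -1.29), while low papilla cells had 396 and 537 CPM. INHBA, the activin A subunit, differed little, at 438 CPM in the straight and 482 CPM in the curly library (log2 0.14, interval 0.01 to 0.27). ID1, ID2 and ID3, targets of BMP signals, stood between -0.27 and 0.28 on the log2 scale. Hedgehog genes (13 listed, 12 in the table, 3 with 100 UMIs) had none past 2-fold: the receptor PTCH1 was at 29.7 and 34.5 CPM and HHIP at 273 and 194 CPM (log2 -0.49, interval -0.69 to -0.29). Of 12 Notch genes 4 reached 100 UMIs, with the target HES1 higher by 1.20 (0.86 to 1.53) and the related HEY2 at the 2-fold limit, lower at -1.0 (-1.45 to -0.58), in curly cells. A single curly cell held 41.3% of the curly HES1 UMIs.

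Among signals to melanocytes, ASIP was more than 2-fold lower in curly high cells and EDN3 was not. EDN3 is a gene of the rule, which chose the cells of each library in part by its level. It had 518 CPM in straight high cells and 457 CPM in curly ones (log2 -0.18, interval -0.31 to -0.05). ASIP, the agouti protein that turns melanocytes towards red and yellow pigment, was at 2865 CPM in the straight and 1279 CPM in the curly library (log2 -1.16, interval -1.24 to -1.09), detected in 100% and 94.5% of high cells but also in 81.7% and 80.5% of the other cells, where its level was 491 and 381 CPM. At 2000 UMIs ASIP was in 95.4% and 81.4% of high cells. KITLG, the ligand of the KIT receptor, had 11 UMIs in straight and 0 in curly high cells. EDNRA, an endothelin receptor of mesenchymal cells, was at 72.8 CPM in the straight and 120.0 CPM in the curly library (log2 0.72, interval 0.44 to 1.0), and ECE1 at 62.9 and 40 CPM (log2 -0.65, interval -1.11 to -0.22). None of the 3 endothelin genes with 100 UMIs, of which EDN3 is a gene of the rule, was past 2-fold.

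Across the list of 55 secreted ligands, 23 reached 100 UMIs in high cells. CXCL14 and CCL26 were more than 2-fold higher in curly cells and BMP3, RSPO2, ASIP, NRG2, PTN and MDK more than 2-fold lower, beside 2.17% and 7.23% of all genes, with a median of -0.26. CCL26, a chemokine, was at 98.4 CPM in the straight and 348 CPM in the curly library (log2 1.82, interval 1.64 to 2.01), and it was found in 38.0% and 64.8% of high cells and 1.91% and 1.54% of the others, or in 16.7% and 40.5% of high cells at 2000 UMIs. Its ratio was 0.13 in low papilla cells. NRG2, a neuregulin, was at 104 CPM in the straight and 37.6 CPM in the curly library (log2 -1.46, interval -1.92 to -1.03). The heparin-binding growth factors PTN and MDK were at 146 and 65.1 CPM and at 20.1 and 3.92 CPM. CXCL12 was at 184 and 146 CPM (log2 -0.33, interval -0.57 to -0.10).

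The papilla signature list of 34 genes, all in the table, had 23 with 100 UMIs, of which 4 were more than 2-fold higher in curly cells (IGFBP3, APOD, LAMC3 and TMEM119) and 3 more than 2-fold lower (SOX18, PTGDS and RSPO2), with a median of -0.26. PTGDS was lower at log2 -1.84 (-1.95 to -1.73) in high cells and differed by 0.10 in low papilla cells. The rule sets a floor on the sum of APOD, CRABP1 and RSPO3 but not on each. APOD, a lipid carrier, was at 1715 CPM in the straight and 4559 CPM in the curly library (log2 1.41, interval 1.36 to 1.46), and CRABP1, which binds retinoic acid, at 2556 CPM in the straight and 4542 CPM in the curly library (log2 0.83, interval 0.78 to 0.87). Of 52 listed transcription factors, 47 were in the table and 23 reached 100 UMIs. SOX18 was past 2-fold, lower at -1.10 (-1.38 to -0.84), but not with ratios centred on their median (-0.97) or without the cells richest in keratin (-0.95), and the median of the list was -0.32. EBF1 lay at the 2-fold limit, at -1.0 (-1.13 to -0.87), and at -1.07 as a mean over cells. TRPS1, a zinc finger factor of hair development, was at 149.8 CPM in the straight and 77.6 CPM in the curly library (log2 -0.95, interval -1.26 to -0.64). PRRX1 and TWIST1, factors of mesenchymal cells, were at 305 and 273 CPM and at 142 and 160.0 CPM, with intervals of -0.33 to 0.01 and -0.05 to 0.40 that include 0.

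The fibrillar type I collagen chains were lower in curly high cells, COL1A2 past 2-fold. COL1A1 was at 1171 CPM in the straight and 637 CPM in the curly library (log2 -0.88, interval -0.99 to -0.77) and COL1A2 at 458 CPM in the straight and 225 CPM in the curly library (log2 -1.03, interval -1.21 to -0.85). COL3A1 was at 302 and 267 CPM (log2 -0.17, interval -0.35 to -0.00). The type VI chains COL6A1 and COL6A2 were lower, at -0.66 and -0.89, whereas the basement membrane chain COL4A1 was higher by 0.96 (0.63 to 1.29), from 46.7 to 91.0 CPM. Of 24 collagens 23 were in the table and 15 had 100 UMIs; COL13A1 was more than 2-fold higher, COL1A2 and COL23A1 more than 2-fold lower, and the median was -0.45. Among 56 proteoglycans and glycoproteins, 54 in the table and 37 with 100 UMIs, DCN, MFAP4 and LAMC3 were more than 2-fold higher and SPARCL1, FN1, CCN1 and NID1 more than 2-fold lower, beside 2.17% and 7.23% of all genes, with a median of -0.25. Fibronectin, FN1, was at 232 CPM in the straight and 62.7 CPM in the curly library (log2 -1.89, interval -2.23 to -1.56). MFAP4, a protein of elastic fibres, was at 113 CPM in the straight and 335 CPM in the curly library (log2 1.57, interval 1.39 to 1.75), and VCAN at 127 and 71.4 CPM (log2 -0.83, interval -1.17 to -0.52). DCN was at 45.7 CPM in the straight and 224 CPM in the curly library (log2 2.29, interval 2.04 to 2.55), and a single cell held 18.8% of its straight and 15.8% of its curly UMIs. Its ratio was 1.30 among cells that reach the study's limit on genes.

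Retinoid, prostaglandin and lipid genes numbered 36 in the list, 33 in the table and 16 with 100 UMIs. RBP4 and APOD were more than 2-fold higher in curly cells, PTGDS and PTGS2 were among those more than 2-fold lower, and the median was -0.15. RBP4, the secreted retinol carrier, was at 101 CPM in the straight and 229.8 CPM in the curly library (log2 1.18, interval 0.97 to 1.39). PTGS2, the inducible cyclooxygenase, was at 111 CPM in the straight and 12.6 CPM in the curly library (log2 -3.15, interval -3.96 to -2.43). Of 10 PDGF and TGF receptor and binding genes, 6 had 100 UMIs: PDGFRL was lower at -1.5 (-1.97 to -1.06) and PDGFRA at -0.45 (-0.78 to -0.13).

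The largest ratios in favour of the curly library belonged to interferon response genes. IFI6, an interferon-induced mitochondrial protein, stood at 478 CPM in the straight and 13891 CPM in the curly library (log2 4.86, interval 4.80 to 4.92) and was detected in 72.6% of straight and 99.1% of curly high cells (8.35% and 90.4% of the others), or 44.2% and 99.0% of high cells at 2000 UMIs. ISG15, a ubiquitin-like protein, was at 25.4 CPM in the straight and 241 CPM in the curly library (log2 3.25, interval 2.95 to 3.55), and MX1, an antiviral GTPase, at 22.6 CPM in the straight and 88.6 CPM in the curly library (log2 1.97, interval 1.58 to 2.35). Of 34 listed genes 28 were in the table and 8 had 100 UMIs; MX1, ISG15, IFI6, IFITM3 and B2M were more than 2-fold higher and none was lower. The difference was not limited to papilla cells: the list's median was 1.34 in high, 1.62 in low papilla and 1.37 in the other cells, and IFI6 was higher by 5.65 and 7.59 in the latter 2 classes. IRF1, an interferon-regulated factor with 90 and 3 UMIs, went the other way (log2 -2.90, interval -5.21 to -1.31).

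Immediate early genes, which respond to stimuli within minutes, and inflammatory genes held members more than 2-fold lower in curly high cells. Of 25 immediate early genes 19 had 100 UMIs. MYC, NR4A1, BTG2 and SOCS3 were more than 2-fold lower and none was more than 2-fold higher, with a median of -0.75 beside -0.35 in low papilla cells and -0.16 in the other cells. FOS was at 1776 CPM in the straight and 1249 CPM in the curly library (log2 -0.51, interval -0.59 to -0.43), JUNB at 2541 and 1461 CPM (log2 -0.80, interval -0.87 to -0.73), and BTG2, an inhibitor of growth, at 244 and 47.8 CPM (log2 -2.35, interval -2.75 to -1.98). Of 25 inflammatory genes, 22 in the table and 15 with 100 UMIs, CCL26 and CXCL14 were more than 2-fold higher and PTX3, ICAM1, TNFAIP6, TNFAIP3 and SOD2 more than 2-fold lower, with a median of -0.31. The excess of CXCL14 was not seen in every subset of the high cells, as given above. ICAM1, an adhesion protein, was detected in 79.7% of straight and 24.7% of curly high cells (49.1% and 10.0% at 2000 UMIs, beside 18.2% and 8.72% of the others as deposited), at 418 and 65.1 CPM (log2 -2.68, interval -3.02 to -2.37), and its ratio was -2.01 in low papilla cells. PTX3, a secreted pattern recognition protein, was at 233 CPM in the straight and 23.5 CPM in the curly library (log2 -3.31, interval -3.88 to -2.79). CDKN1A, an inhibitor of the cell cycle counted in the cycling list of 20 genes, was at 467 CPM in the straight and 102 CPM in the curly library (log2 -2.20, interval -2.46 to -1.94). That list had 8 genes with 100 UMIs, with CDKN1A and MCM3 more than 2-fold lower. TOP2A, of dividing cells, had 15 and 13 UMIs in high cells, and MKI67 had 6 and 0.

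Keratins, which papilla cells are not known to make, were also higher in the curly high cells. Of 11 keratinocyte markers with 100 UMIs, KRT15, KRT71, KRT25, KRT27, KRT35 and KRT6A were more than 2-fold higher in curly high cells and none was lower, with a median of 1.28 beside 1.09 in low papilla cells and 0.09 in the other cells. KRT25, an inner root sheath keratin, was at 74.2 CPM in the straight and 278 CPM in the curly library and was found in 42.6% and 67.6% of high cells, against 51.6% and 79.6% of the others at 506 and 1436 CPM. At 2000 UMIs it was in 13.2% and 37.1% of high cells. KRT27 was at 16.4 CPM in the straight and 99.6 CPM in the curly library, and KRT6A at 24.0 CPM in the straight and 98.8 CPM in the curly library, with 50.8% of its curly UMIs in a single cell. The log2 ratio of KRT6A was 2.04, and 1.34 without the cells richest in keratin. The part of keratin RNA from other cells in these and in the remaining differences was not tested. Without the 10% of cells of each class and library richest in keratin UMIs, 117 genes were more than 2-fold higher and 388 lower in curly high cells.

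The 12 genes with the largest ratios beside the interferon genes and keratins included TXNIP, WFDC1, DKK3 and CHI3L1. TXNIP, a regulator of thioredoxin and glucose uptake, was at 80.6 CPM in the straight and 418 CPM in the curly library (log2 2.37, interval 2.19 to 2.56), while it differed by -0.06 in the other cells. WFDC1, a secreted protein with a protease inhibitor fold, was at 134 CPM in the straight and 615 CPM in the curly library (log2 2.19, interval 2.04 to 2.34), and its ratio was 0.49 in low papilla cells. CHI3L1, a secreted glycoprotein, was at 19.5 CPM in the straight and 71.4 CPM in the curly library (log2 1.87, interval 1.44 to 2.29), and at 1.08 among cells that reach the study's limit on genes. At the other end, GAL, the neuropeptide galanin, had 254 UMIs in 8.45% of straight high cells (1.51% of the other straight cells), 17.7% of them in a single cell, and 0 in 219 curly cells, at least 21.1-fold lower counted against 3 UMIs in the curly class. TPSB2, a mast cell tryptase that is foreign to papilla cells, had 121 straight UMIs, 83.5% of them in a single cell, and none in curly cells. Counted against 3 UMIs it was at least 10.0-fold lower, a bound that rests mostly on that single cell. BST1, a membrane enzyme, was at 34.8 CPM in the straight and 0.784 CPM in the curly library (log2 -5.47, interval -10.78 to -2.97), and stood at 44.8 and 1.08 CPM in low cells. MEST, an imprinted gene, was at 32.6 CPM in the straight and 3.14 CPM in the curly library (log2 -3.38, interval -5.27 to -1.99), and its ratio was 0.23 in the other cells. The other ranked genes rested on few curly UMIs. TMEM130 had 114 and 2 UMIs (log2 -3.83, interval -6.89 to -1.94), TMOD2 and ARG2 103 and 2 each (log2 -3.68, interval -6.75 to -1.79), and PCOLCE2 107 and 3 (log2 -3.15, interval -5.45 to -1.56). ARID5A had 152 and 4, and TSPAN33 260 and 7.

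**Figure D5:**
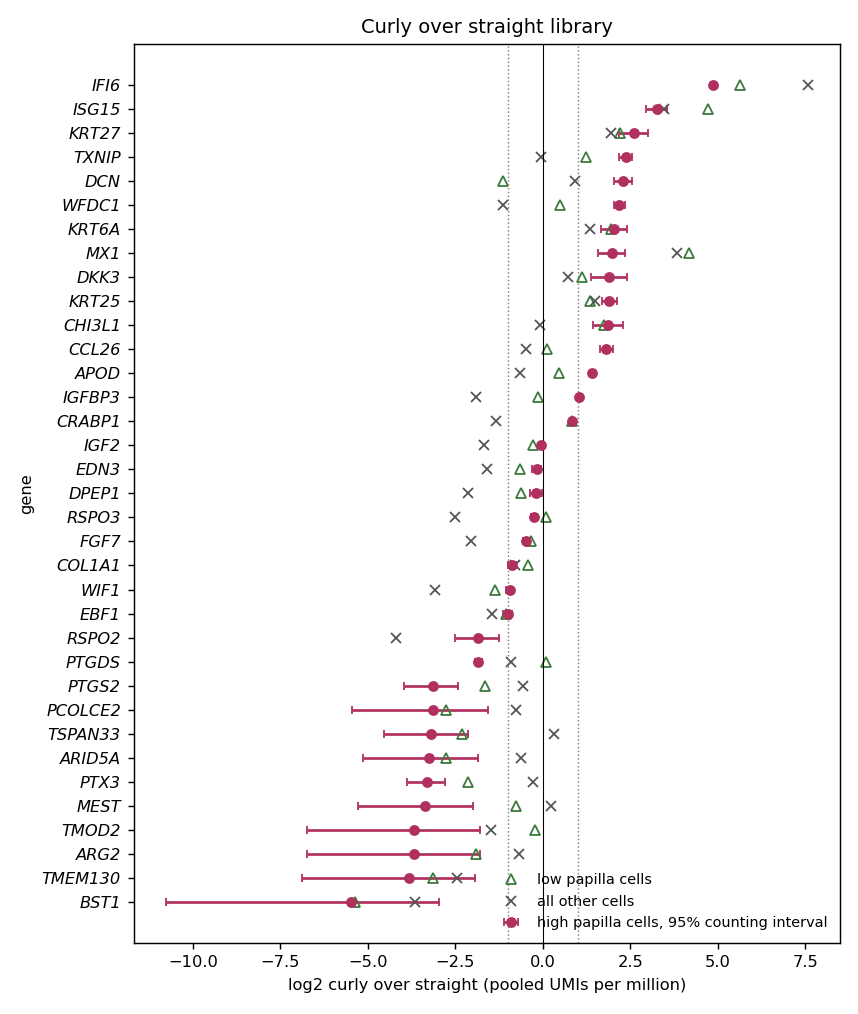
Log2 ratio of the curly over the straight library in high papilla cells (red, with exact binomial 95% counting intervals), low papilla cells (green triangles, drawn where each library had a UMI) and all other cells (crosses). IFI6 lies far right in all 3 classes (4.86, 5.65 and 7.59), whereas CCL26 lies at 1.82 in high cells and 0.13 in low cells, and PTGDS at -1.84 and 0.10.

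High papilla cells also varied among themselves within a library. Variance over mean of UMIs per cell, at 2000 UMIs each, had a median of 1.11 in straight and 1.13 in curly cells over the 476 genes with 100 thinned UMIs in each library. Of the 12 genes that varied most in both, 4 were keratins, led by KRT17 at 14.7 and 18.5. For genes whose levels differ between cells this measure also rises with the mean level. The part of keratin RNA from other cells in it was not tested. CXCL14 was at 11.7 and 12.6, IGFBP3 at 7.74 and 9.0, SOSTDC1 at 6.93 and 5.16, and APOD at 4.61 and 13.4. SOSTDC1 had a median of 0 per cell in each library but a 90th percentile of 23.4 UMIs per 10000 in straight and 11.9 in curly cells. IGFBP3 was spread more evenly, with quartiles of 15.4 and 58.8 in straight and 38.2 and 117 in curly cells. FOS, JUN, IER3 and S100A4 were the others, and 10 of the 12 were also among the most variable at 4000 UMIs.

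Levels were also set out by which of the chosen ligands, genes of the rule, were detected in a cell. APOD is a gene of the rule too, and the values are a description. The order of the SOSTDC1 levels differed between the libraries. SOSTDC1 was at 645 CPM in 536 straight cells with both FGF7 and EDN3, 1039 CPM in 44 with FGF7 but no EDN3 and 63.5 CPM in 46 with EDN3 but no FGF7. In the curly library it was at 425, 219 and 85.4 CPM in 124, 69 and 14 such cells. Cells with FGF7 alone had the most APOD, at 2761 CPM in the straight and 6262 CPM in the curly library, against 1614 and 3925 CPM in cells with both. CXCL14 was at 102 and 97.4 CPM in cells with both ligands, at 626 and 557 CPM in cells with FGF7 alone and at 210 and 786 CPM in cells with EDN3 alone. RSPO2 was at 73.7 and 25.8 CPM in cells with both and at 4 and 1 UMIs (16.1 and 3.13 CPM) in cells with FGF7 alone. Depth differed too, with median UMIs of 8247.5 and 6408.5 in cells with both against 5322.5 and 4401 in cells with FGF7 alone, so that a missed EDN3 UMI and an absent one cannot be told apart. PTGDS ranged from 1597 to 2114 CPM over the straight cells of the 3 kinds and from 322 to 1212 CPM over the curly ones.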

How the data were processed

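Cells from the pooled skins of 3 straight wool and 3 curly wool lambs were profiled in 1 droplet library per wool type. Reads had been aligned to Oar_rambouillet_v1.0 and counted with Cell Ranger, version 3.0.2 per the labels and 2.2.0 per the study's methods, and filtered and normalized with Seurat 2.3.4. What the authors deposited is, for each cell, the natural log of a gene's UMIs per 10000 after adding 1, in 1 table of 18161 genes by 14037 cells. The methods give 15830 cells after filtering, and limits of 200 genes per cell, 3 cells per gene, 1750 genes and 1.5% mitochondrial reads. In the table cells had from 302 to 3999 genes, all 14037 had 200 or more, and 8285 had 1750 or more. No treatment of doublets is given in the sources used here, and none was called.

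The values were taken back to UMIs by undoing the log and dividing by the smallest value above 0 of each cell, and 100% of the 28552149 values above 0 came out whole within 0.01. Libraries were read from the cell names, which left 0 columns unused, and held 57956122 UMIs (straight) and 77634565 UMIs (curly), with medians of 7373.5 and 7495 UMIs per cell and a lowest cell of 500. Cells were assigned to classes by the rule on gene levels, with no clustering. LUM-positive fibroblasts had LUM of at least 5, COL1A1 and COL1A2 summing to at least 20 and fewer than 3 endothelial genes detected, and all cells in no class were the other cells. UMIs were summed per class and library. As each group was 1 library, no test was made, and genes are described as past 2-fold where the sums held at least 100 UMIs, with 0.5 UMI added to both sums of a gene where one was 0. The genes named are the 15 largest and 10 smallest ratios of high over low in both libraries, the 12 largest and 12 smallest of curly over straight, the 12 most variable, among genes with a symbol, and listed genes (29 of the 109 genes higher in the curly library have no symbol). A few of these are not reported here. Members, lists and rules were chosen with earlier results of these data known. Gene names are those of the table, and 305 of 3912 unnamed identifiers, TUNAR, KRT14 and KRT15 among them, were named through RefSeq's annotation of another assembly. Its coordinates were used only for the order of genes around FGF7. Of 528 listed genes 494 were in the table. The alternatives were other thresholds, thinning to 2000 UMIs, a limit of 1750 genes, levels as means over cells, ratios centred on their median, and leaving out the 10% of cells richest in keratin. Ratios and intervals were tested on simulated Poisson sums with known fold changes. These held no spread between cells, so the test does not tell how the intervals behave under such spread. Python 3.11.15 was used with numpy 2.4.6, scipy 1.17.1, pandas 2.3.3 and matplotlib 3.10.9.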

Additional observations from a re-analysis of the deposited data

Results flagged for a closer look

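High and low papilla cells were compared between the libraries in the same way. The 3 genes given here had log2 ratios of opposite sign that lay beyond 1 in each of the 2 classes. Genes whose signs differed with a ratio within 1 in either class, PTGDS and IGFBP3 among them, are not among these. DCN was past 2-fold in each class. MSX1 and TOP2A had too few UMIs in high cells for the limit set for genes past 2-fold. Their ratios there are given as a description and are not counted as past 2-fold. With 1 library per wool type the difference between the classes was not tested. DCN had a log2 ratio of curly over straight of 2.29 in high papilla cells, from 234 to 285 UMIs (1.30 among cells that reach the study's limit on genes and 2.87 without the cells richest in keratin), and of -1.13 in low papilla cells, from 1580 to 724 CPM. The study named its hair matrix cluster from DCN and MSX1 among others. MSX1, a homeobox transcription factor, had 1.34 in high cells on 27 and 17 UMIs, and -2.54 in low cells on 185 and 24 UMIs. TOP2A, a topoisomerase of dividing cells, had 1.80 in high cells on 15 and 13 UMIs, and -1.13 in low cells on 75 and 26 UMIs. A single cell held 7.69% of the curly TOP2A UMIs of the high class and 23.5% of those of MSX1.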

How the results depend on the processing

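The share of high papilla cells in the straight and curly library was 7.41% and 1.69% with a sum of the 3 genes of at least 10 UMIs per 10000, 12.1% and 4.15% with at least 2, 13.4% and 2.04% among cells that reach the study's limit on genes, and 12% and 4.16% after thinning to 2000 UMIs. A sum of CRABP1, APOD and RSPO3 of at least 40 gave 6.94% in the straight library and stayed within the counting interval in the curly one. Of all papilla cells they were 44.1% and 20.4%, 72.3% and 50.2%, 78.2% and 47.6%, and 66.4% and 44.4% under the first 4 of these settings. The straight share was the higher one under each. With at least 20 UMIs per gene, 185 genes were higher and 384 lower in high than in low cells, and 446 were higher and 1175 lower in the curly library. With at least 300 UMIs these counts were 45, 40, 54 and 118. The 24 other recounts of genes kept within 1.5 times. Log2 ratios were recomputed for 45 results of curly over straight and 50 of high over low, not for all genes past 2-fold. Among these, no difference past 2-fold changed sign under any alternative. Of the recomputed values, 220 of 270 log2 ratios of curly over straight, 270 of 300 of high over low, and 49 of 72 levels kept within their counting intervals. The sign turned in 5 of the 270, all of ratios within 2-fold: CXCL12 went from -0.33 to 0.04 with the limit on genes, EDN3 from -0.18 to 0.16 at a sum of at least 10, and IGF2 from -0.04 to 0.08, 0.02 and 0.01 when centred, with the limit on genes and without the cells richest in keratin. Leaving out cells whose barcode is in both libraries was an alternative chosen after seeing the data. No paired analysis was possible because each wool type had 1 library. For the same reason no library could be left out. A gene with 0 UMIs in a class was taken as up to 3, which is 0.586 CPM for straight and 2.35 CPM for curly high cells, and ratios on 1 to 3 UMIs have wide counting intervals.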
